A study of Mus musculus with 6 samples.

Results

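Glucose entry, glycolysis and the glucose-sensing factor ChREBP were followed through 8 genes in mouse liver: Slc2a2, Pfkl, Pfkfb1, Pfkfb3, Tpi1, Pklr, Mlxipl and Thrsp. They were chosen by name, with earlier results of these data known. Every probe set that the platform's annotation pairs with 1 of these symbols alone was used. That gave 16 probe sets for 7 genes, out of 34945 probe sets with a single symbol and 45101 on the array. Pfkfb1, the liver form of the bifunctional enzyme that sets fructose 2,6-bisphosphate, had no such probe set and was not analysed here.

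The samples were livers of male mice 8 weeks old, on a mixed background, fed standard chow and then fasted for 24 h. By genotype, 3 arrays were Mig-6 d/d and 3 were Mig-6 f/f, and both groups went through the fast. The labels do not say what drives the deletion, in which liver cells it acts, or whether each array holds a separate animal. P-values therefore measure the spread between these samples, which may be technical. Errfi1 encodes Mig-6, which binds the EGF receptor and damps its signal.

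In the liver, glucose enters and leaves hepatocytes through the carrier of Slc2a2, GLUT2. Phosphofructokinase, pulled on by fructose 2,6-bisphosphate, and liver pyruvate kinase are control points of glycolysis, and flux through both is held back in fasting. ChREBP, the product of Mlxipl, is activated by sugar phosphates, pairs with the protein of Mlx, and binds a carbohydrate response element made of a pair of E-box-like parts held apart by a short spacer. Pklr is its classical target, and Thrsp, a small nuclear protein that promotes lipogenesis, is another.

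The promoter windows of 3 genes are shown because Mlxipl and Slc2a2 were the genes whose groups did not overlap, and Pklr carries the classical element. They come from RefSeq (GRCm38.p6) and run from 250 bases before to 50 bases after a gene start, which for Pklr is the downstream of its 2 listed starts. Capitals mark matches on either strand to the E-box CACGTG or to the paired form, CACGNG and CNNGTG with 5 bases of any kind between them.
Pklr, chr3:89136373-89136672, plus strand: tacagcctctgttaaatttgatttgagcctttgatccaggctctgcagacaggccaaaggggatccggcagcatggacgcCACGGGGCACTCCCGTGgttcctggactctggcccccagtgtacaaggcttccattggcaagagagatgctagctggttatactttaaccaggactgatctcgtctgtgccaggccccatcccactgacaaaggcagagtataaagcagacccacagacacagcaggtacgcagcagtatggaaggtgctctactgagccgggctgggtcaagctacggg
Mlxipl, chr5:135089640-135089939, plus strand: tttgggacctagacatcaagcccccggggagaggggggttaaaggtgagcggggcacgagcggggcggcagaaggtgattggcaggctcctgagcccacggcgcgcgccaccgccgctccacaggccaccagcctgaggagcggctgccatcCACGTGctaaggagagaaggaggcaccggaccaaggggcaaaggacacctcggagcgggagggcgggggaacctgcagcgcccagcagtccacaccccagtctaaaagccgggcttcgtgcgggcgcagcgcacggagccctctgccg
Slc2a2, chr3:28697653-28697952, plus strand: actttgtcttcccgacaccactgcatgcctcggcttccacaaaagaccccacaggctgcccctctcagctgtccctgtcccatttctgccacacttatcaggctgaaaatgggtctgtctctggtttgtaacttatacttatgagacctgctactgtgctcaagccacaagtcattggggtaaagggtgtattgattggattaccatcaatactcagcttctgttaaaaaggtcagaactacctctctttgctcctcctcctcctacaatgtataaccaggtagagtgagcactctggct
The paired form was found in the Pklr window, at 170 to 154 bases before the start, and in no other window of the 8 genes. Of 32851 windows of this length in the table, 0.198% held it. The E-box was found in 1 of the 2 Mlxipl windows, the one printed, at 98 to 93 bases before the start. It was also in 1 of the 2 Pfkfb3 windows, at 53 to 48 bases before the start, against 7.15% of all windows. No match in a window, such as those of Slc2a2 and Thrsp, says only that these letters are not in it. Bases outside the windows were not searched.

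Errfi1 checked the labels. It read 68.0, 61.8 and 59.7 in the d/d arrays, against 5371, 5424 and 5686 in the f/f arrays, in deposited intensity, a linear brightness per probe set. Albumin and other hepatocyte transcripts were bright in both groups, with summed intensities of 10 markers from 166100 to 170500 in d/d and from 167700 to 171400 in f/f. The probe set of Ass1, 1 of the 10, read only 88.2 in d/d and 100.2 in f/f on average. One array, f/f replicate 3, was unlike the others, with a mean of 3807 on the 18S ribosomal RNA controls, while the other 5 arrays had 218 to 455.2. It was the highest or the lowest of the 6 arrays for 8 of the 16 member probe sets (50%) and for 55.8% of all probe sets other than controls.

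Of the 7 genes measured, 0 passed an adjusted p of 0.05 in limma (Benjamini-Hochberg over the 13718 genes tested), where 0.0948% of all genes passed. A positive difference was found for 4 of the 7, against 46.5% of all genes. Slc2a2 and Mlxipl had every d/d array above every f/f array, and these 2 also had an unadjusted p under 0.05. Over all genes, 7.84% had such a p, 4.77% with d/d higher, and 14.7% had groups that did not overlap, with d/d above f/f for 7.9%. The median log2 difference of the 7 genes was 0.19, against -0.015 over all genes tested. It was 0.029 when all probe sets of a gene were averaged and 0.017 without d/d replicate 3. Differences are d/d minus f/f of quantile normalized log2(intensity + 16), with the standard error of limma and n = 3 per group. For dim genes the constant makes a difference too small. A bulk sample cannot tell fewer cells of a type from less RNA per cell.

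**Figure D1:**
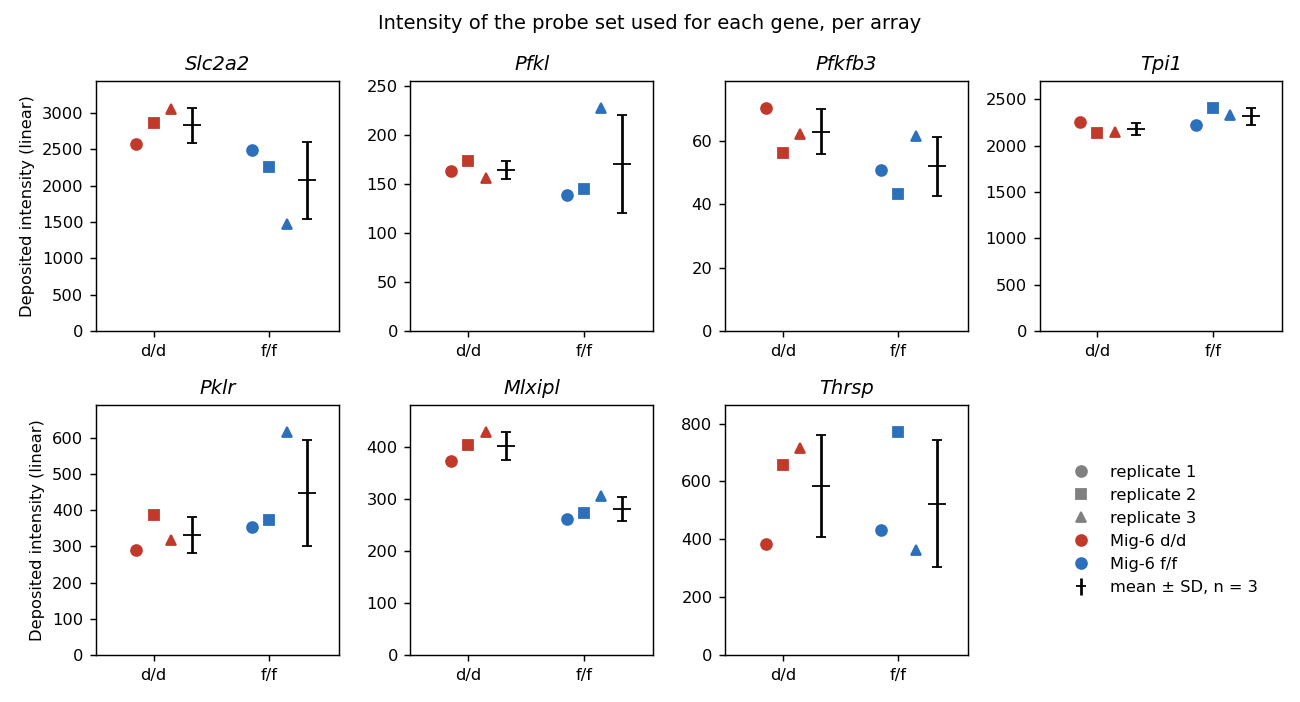
Deposited intensity (linear axis from 0) of the probe set that stood for each of the 7 genes, per array, with Mig-6 d/d left of Mig-6 f/f and the mean ± SD of 3 arrays as bars. Mlxipl and Slc2a2 are the genes with all d/d points above all f/f points, and f/f replicate 3 (blue triangle) is far from the other f/f arrays in Slc2a2, Pfkl and Pklr.

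Slc2a2, the glucose carrier, read 2579, 2863 and 3055 in d/d livers, against 2486, 2263 and 1478 in f/f livers. These values come from its only probe set, so no other could check them. The groups were separate, but d/d replicate 1 and f/f replicate 1 lay close together and f/f replicate 3 was far below the rest. The log2 difference was 0.50 ± 0.19 (95% interval 0.071 to 0.93) and did not pass (limma adjusted p = 0.549). Leaving out the f/f replicate 3 array gave 0.29 (limma adjusted p = 0.385), and leaving out f/f replicate 1 gave 0.65.

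Pfkl, the liver subunit of phosphofructokinase, read 163.6, 173.7 and 156.4 in d/d livers, against 139.3, 144.7 and 228.0 in f/f livers. The 3 d/d arrays lay between f/f replicates 1 and 2 below and f/f replicate 3 above. The log2 difference was -0.0145 ± 0.16 (95% interval -0.38 to 0.36), and it turned to 0.17 once the f/f replicate 3 array was left out (limma adjusted p = 0.57) and to 0.14 with array weights. Its other probe sets, 1439148_a_at and 1453541_at, had 0.036 and 0.047.

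Pfkfb3, an inducible form of the bifunctional enzyme that favours synthesis of fructose 2,6-bisphosphate, was dim. Probe set 1416432_at read 70.5, 56.2 and 62.2 in d/d livers, against 50.9, 43.4 and 61.7 in f/f livers, close to the limit of 48.3 set for dim probe sets. The groups overlapped through f/f replicate 3 and d/d replicate 2, and the log2 difference was 0.24 ± 0.12 (95% interval -0.039 to 0.52, limma adjusted p = 0.707). The other probe set, 1456676_a_at, had -0.10 ± 0.11.

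Tpi1, triosephosphate isomerase, had the smallest standard error of the 7 genes. Its brightest probe set, 1452927_x_at, whose suffix marks probes that may bind other transcripts, read 2257, 2140 and 2152 in d/d livers, against 2224, 2404 and 2326 in f/f livers. The groups overlapped, and the log2 difference was -0.046 ± 0.10 (95% interval -0.27 to 0.18). The other probe sets, 1415918_a_at and 1435659_a_at, had -0.057 and 0.050, the second turning to -0.12 without f/f replicate 3.

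Pklr, liver pyruvate kinase, gave opposite signs on its probe sets, so that no single direction can be stated. The brightest, 1438711_at, read 290.9, 387.2 and 318.2 in d/d livers, against 352.4, 372.8 and 617.5 in f/f livers. Here d/d replicate 2 lay above f/f replicates 1 and 2, and f/f replicate 3 alone lay far above all others. Its log2 difference was -0.38 ± 0.21 (limma adjusted p = 0.751), and -0.13 without f/f replicate 3.
Probe set 1421258_a_at read 178.2, 174.2 and 167.4 in d/d livers, against 133.2, 138.3 and 151.6 in f/f livers. All d/d arrays lay above all f/f arrays, with a log2 difference of 0.29 ± 0.10 in the fit over all 45037 probe sets other than controls (limma adjusted p = 0.57). It kept this sign and stayed between 0.23 and 0.32 over 13 alternatives. The third, 1421259_at, had 0.063 ± 0.12 and groups that overlapped. The mean over all Pklr probe sets differed by -0.0084.

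Mlxipl, on chromosome 5, was the member with the smallest p, ranked 112 of the 13718 genes. Mlxipl had only 1 probe set, so no other probe set could check its value. It read 374.5, 404.3 and 429.9 in d/d livers, against 262.2, 273.9 and 306.9 in f/f livers. The lowest d/d array lay above the highest f/f array, and f/f replicate 3 was the highest of its group. The means were 403 ± 27.7 in d/d and 281 ± 23.2 in f/f (SD, n = 3). The normalized log2 difference was 0.49 ± 0.11 (95% interval 0.25 to 0.74), which is 1.41-fold on that scale, and it did not pass over all genes (limma adjusted p = 0.203). It passed in 1 of 16 alternatives, array weights, where f/f replicate 3 counted for 0.178 and the difference was 0.52 (limma adjusted p = 0.0231). Over those alternatives the limma adjusted p ran between 0.0231 and 0.703, and without f/f replicate 3 it was 0.057.

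The arrays of Thrsp differed more within each genotype than the genotype means did. Its brightest probe set, 1424737_at, read 383.7, 655.2 and 715.1 in d/d livers, against 432.0, 772.2 and 361.9 in f/f livers. The highest and the lowest array were both f/f, and the log2 difference was 0.19 ± 0.31 (95% interval -0.52 to 0.89, limma adjusted p = 0.912). Leaving out f/f replicate 2 gave 0.50, and leaving out f/f replicate 3 gave -0.038. Probe set 1422973_a_at ranked the arrays in a similar way, with 250.8, 389.0 and 496.2 in d/d and 298.9, 533.7 and 263.8 in f/f, and differed by 0.077 ± 0.28. The dimmer 1444166_at read 75.7, 69.0 and 69.5 in d/d and 80.6, 76.7 and 95.8 in f/f. On it every d/d array was below every f/f array, by -0.18 ± 0.11 (limma adjusted p = 0.826).

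By probe set, 10 of the 16 had a positive and 6 a negative difference, where 47.6% of all probe sets had a positive one, and 0 passed (limma over 45037 probe sets, where 0.0711% passed). An unadjusted p under 0.05 was found for 3, all higher in d/d, where 6.96% of all probe sets had one and 4.22% were higher. Groups did not overlap for 4 of the 16, 3 with d/d above and 1 with d/d below, where 13.1% of all did not overlap, 6.95% with d/d above and 6.13% with d/d below.

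**Figure D2:**
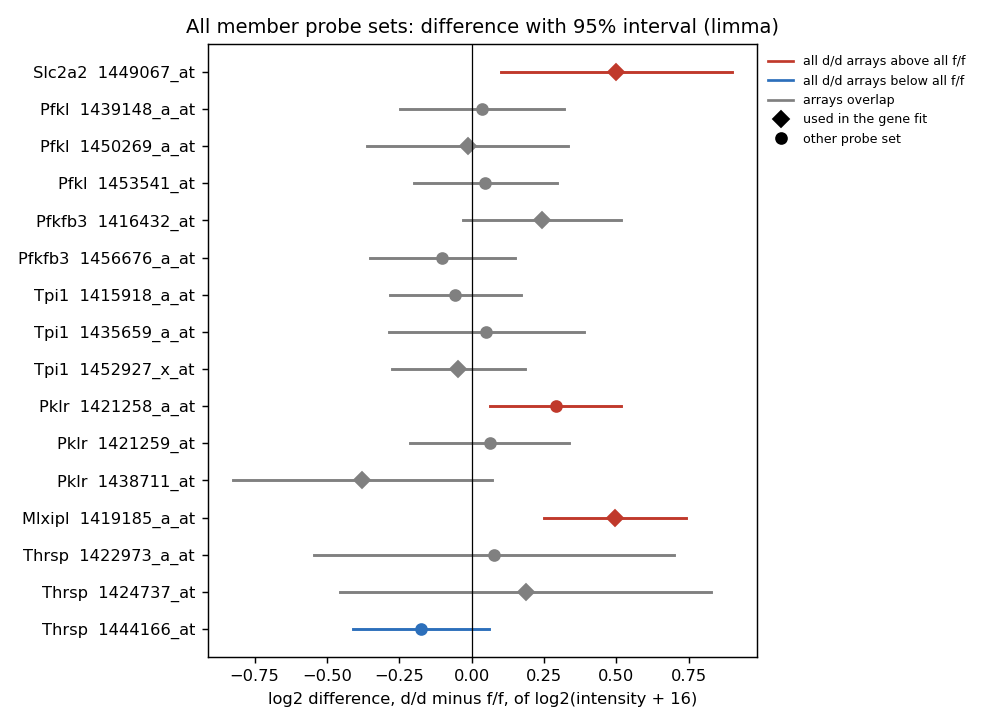
Log2 difference (d/d minus f/f, horizontal axis) of each of the 16 member probe sets with its 95% interval from limma, where colours show whether the arrays of the groups overlap. Mlxipl at 0.49 and Slc2a2 at 0.50 lie to the right of 0, while the 3 Pklr probe sets run from -0.38 to 0.29.

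**Figure D3:**
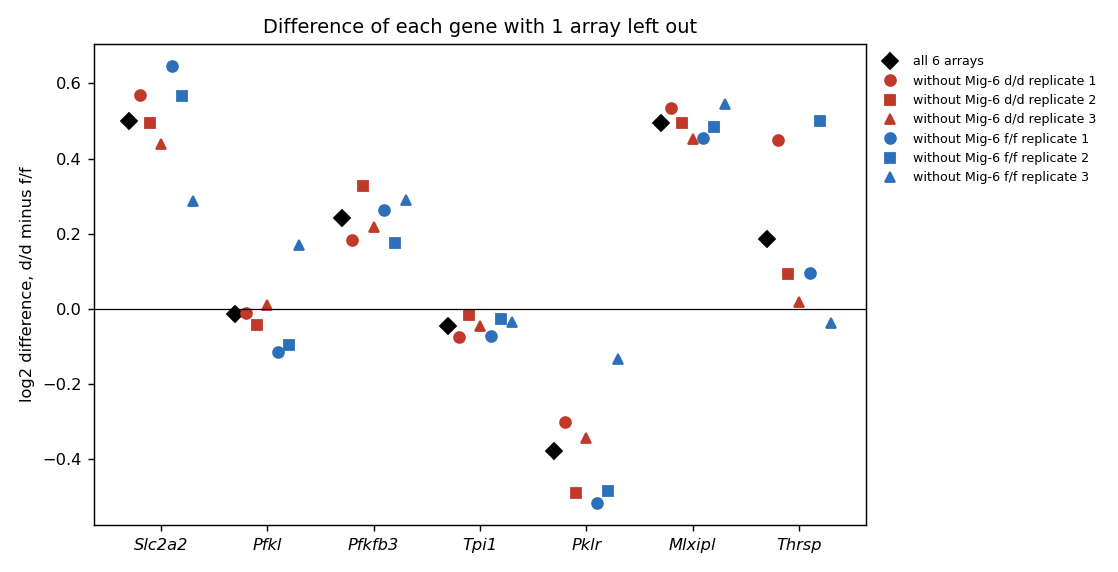
Log2 difference (d/d minus f/f, vertical axis) of each gene with all 6 arrays (black) and with 1 array left out (red for d/d, blue for f/f). Mlxipl stays between 0.45 and 0.55, Slc2a2 drops to 0.29 without f/f replicate 3, and Thrsp runs from -0.038 to 0.50.

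The array patterns nearest to the 3 genes with the largest differences were found as the smallest root mean square distance between log2 deviations from each gene's own mean over the 6 arrays. For Mlxipl they were those of Ermard (0.0441) and Epas1 (0.0488), a hypoxia-inducible factor. For Slc2a2 they were 1810010H24Rik (0.041) and Hnrnph1 (0.0507), and for Pklr Krt25 (0.0386) and Zfp185 (0.0402). These distances rest on 6 points, of which f/f replicate 3 is one.

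The rest of the glycolytic pathway was read from a list of 30 genes of glucose carriers, hexokinases, lower glycolysis and fructose entry. Of these, 25 had a probe set and 23 were tested, with 8 higher, 15 lower and a median of -0.049. In limma 0 of the 23 passed and 3 had an unadjusted p under 0.05, where 7.84% of all genes had one. A positive difference was found for 46.5% of all genes. Groups did not overlap for 2 with d/d above and 6 with d/d below, against 7.9% and 6.79% of all genes. The other genes of the list were not analysed here. Gckr, a regulatory protein of hepatocyte glucose use, read 794.1, 899.5 and 850.5 in d/d livers, against 685.1, 715.2 and 495.5 in f/f livers. All d/d arrays were above all f/f arrays, by 0.43 ± 0.15 (limma adjusted p = 0.513), and by 0.27 without f/f replicate 3.

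Khk, ketohexokinase, which brings fructose into glycolysis, read 1442, 1374 and 1499 in d/d livers, against 1047, 1069 and 1270 in f/f livers. It too had separate groups, with 0.36 ± 0.12 (limma adjusted p = 0.438). Slc2a1, the carrier GLUT1 of most other cells, went the other way, with 117.4, 103.5 and 104.7 in d/d and 138.4, 143.9 and 164.6 in f/f. Its difference was -0.39 ± 0.11 (limma adjusted p = 0.302). On its other probe sets it was -0.43 and -0.44, with groups that overlapped.

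Aldoa, the aldolase of muscle and most tissues, had -0.23 ± 0.11 (limma adjusted p = 0.68) with separate groups, and all 5 of its probe sets were negative, from -0.35 to -0.20. All 5 carry the suffix of probes that may bind other transcripts, and on 1447734_x_at the groups overlapped. Slc2a4, Pfkfb2, Pgk1 and Eno3, named after their values were seen, were the other genes of the list with every d/d array below every f/f array on the normalized scale, at -0.20, -0.23, -0.11 and -0.14. Without f/f replicate 3, Slc2a4, Pfkfb2 and Eno3 had -0.126, -0.0557 and -0.060, and with probe sets averaged Slc2a4 had -0.0904. The phosphofructokinase subunits of other tissues, Pfkm and Pfkp, also named after their values were seen, had 0.027 and -0.19 (Pfkp -0.112 without f/f replicate 3), and Pkm, the pyruvate kinase of most other tissues, -0.049 ± 0.12, turning to 0.061 without f/f replicate 3.

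Markers of Kupffer cells, the liver's macrophages, lay lower in d/d for 11 of 12 genes, with a median of -0.27 and 0 past the threshold (3 with an unadjusted p under 0.05, all lower). Over all genes tested, 46.5% had a positive difference and 7.84% an unadjusted p under 0.05. Their summed intensity was 2727 to 3500 in d/d and 3248 to 4498 in f/f, and none was at 0. The ranges overlapped, and the top of the f/f range was f/f replicate 3. The part of these cells in the values of Slc2a1, Aldoa and Pfkfb3 was not tested. Endothelial markers had a median of 0.030 and hepatocyte markers one of -0.016.

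Partners and other targets of ChREBP were read from a list of 23 genes, of which 22 were tested, with 11 higher, 11 lower and a median of 0.016. The list was chosen with earlier results of these data known, so passes within it do not test the list. Gckr and Khk, described above, belong to this list too. Rgs16, a regulator of G protein signalling that is induced by glucose in hepatocytes, rose, and G6pc, the phosphatase that releases free glucose, fell. The other 20 did not pass, and over all genes 0.0948% passed. Rgs16 read 706.1, 777.1 and 714.1 in d/d livers, against 218.6, 189.3 and 243.1 in f/f livers, which differs by 1.70 ± 0.11 on the log2 scale (limma adjusted p = 0.00226). It passed in all 16 alternatives, with a limma adjusted p of up to 0.0491. In the fit over all probe sets, its other probe sets, 1426037_a_at and 1451452_a_at, had 1.78 and 0.59 (limma adjusted p = 0.000626 and 0.302). G6pc read 1400, 1266 and 1767 in d/d, against 3315, 3758 and 3567 in f/f, a difference of -1.24 ± 0.14 (limma adjusted p = 0.0251). Its call ended when d/d replicate 1 or 2 was left out (0.198 and 0.177 as limma adjusted p) or f/f replicate 1 or 2 (0.0857 and 0.102). Then 1 of the 22 passed, Rgs16.

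ChREBP's partner Mlx had -0.039 ± 0.17 and its relative Mlxip -0.0032 ± 0.20, both with groups that overlapped and both named after their values were seen. Txnip, a sugar-induced brake on glucose uptake, read 348.4, 367.4 and 486.9 in d/d livers, against 531.2, 576.6 and 429.6 in f/f livers. The groups overlapped through d/d replicate 3 and f/f replicate 3, and the difference was -0.34 ± 0.16 (limma adjusted p = 0.676). Me1, malic enzyme, and Fgf21, a fasting hormone, which had an unadjusted p under 0.05 and were named for it, had -0.50 ± 0.19 and -0.36 ± 0.16, with 0.559 and 0.637 as limma adjusted p.

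**Figure D4:**
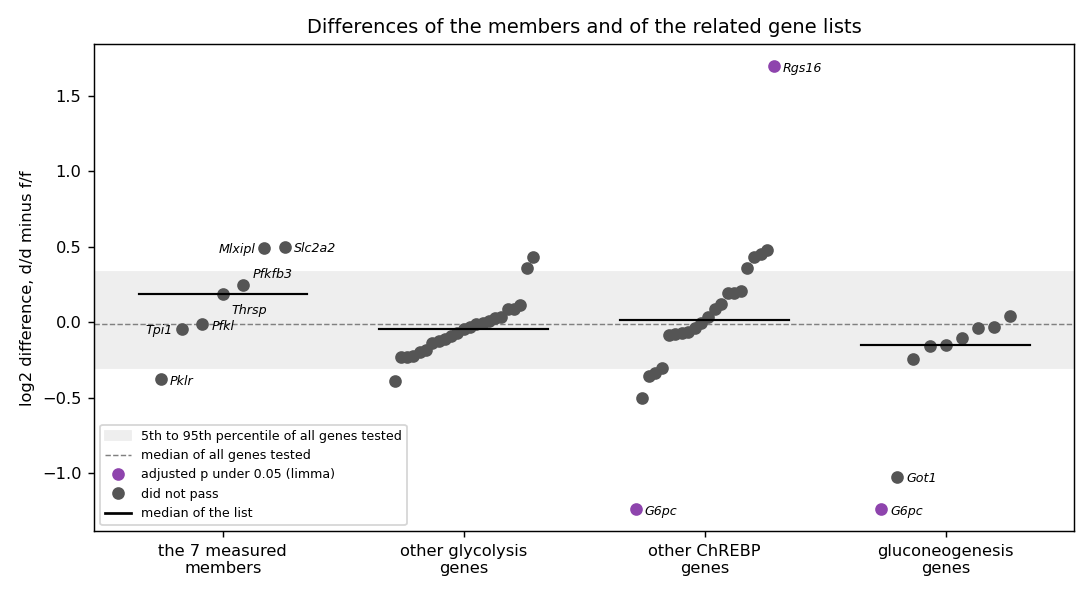
Log2 difference (d/d minus f/f, vertical axis) of the 7 measured genes and of 3 related lists, each point a gene and each black line a list's median, on a grey band from the 5th to the 95th percentile of all genes tested. Rgs16 at 1.70 and G6pc at -1.24 passed (purple), and the medians of the lists, at -0.049, 0.016 and -0.15, stand beside -0.015 for all genes.

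Against the opposite pathway, 9 gluconeogenesis genes were tested, of which G6pc fell, 8 did not pass, and 8 had a negative difference, with a median of -0.15. Of all genes tested, 0.0948% passed and 46.5% had a positive difference. Got1, the cytosolic aspartate transaminase, had -1.02 ± 0.14 (limma adjusted p = 0.0673) and separate groups, and it passed in 6 of 16 alternatives. Glycolytic enzymes were set against a gluconeogenic enzyme that opposes them, as a log2 ratio in each array. The log2 ratio of Pfkl to Fbp1, fructose-1,6-bisphosphatase, was -5.98, -5.91 and -6.01 in d/d livers, against -6.36, -6.29 and -5.66 in f/f livers. It differed by 0.14, with d/d inside the range of f/f (two-sided exact permutation p = 0.5), and by 0.36 without f/f replicate 3. The log2 ratio of Pklr to Pck1, phosphoenolpyruvate carboxykinase, was -4.995, -4.501 and -4.829 in d/d, against -4.78, -4.64 and -3.89 in f/f. It differed by -0.34 (two-sided exact permutation p = 0.4), by -0.064 without f/f replicate 3, and by 0.045 with probe sets averaged. Adjusted by Benjamini-Hochberg over these 2 pairs, both exact permutation tests gave p = 0.5, where 3 against 3 allows no p under 0.1. The size of such a ratio has no meaning of its own, since it sets one probe set against another. Only its difference between arrays does. Pck1 itself had -0.042 on its brightest probe set and -0.42 on 1439617_s_at, with every d/d array below every f/f array. On the dim 1455209_at it had 0.31, with every d/d array above.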

How the data were processed

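Total liver RNA carried a biotin label on Affymetrix arrays, per the labels' protocols. The authors deposited 1 linear intensity for each of 45101 probe sets on each of 6 arrays. Their summary method, background correction and scaling are not given in the sources used here. Arrays were grouped by genotype, and probe set names came from the platform's annotation table (34945 with 1 symbol, 932 with several, 9160 with none, 64 controls). Of those with 1 symbol, 34741 matched the reference gene table by Entrez number and 0 changed name.

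Intensities were used as log2(intensity + 16). Array medians differed by up to 0.185 log2, and arrays were quantile normalized. Each gene was represented by its brightest probe set (mean over arrays), and the lowest 40% of probe sets by mean (under a log2 value of 6.01) were left out, which left 13718 genes. The genotype difference was fitted in limma 3.58.1 (lmFit, eBayes; R 4.3.3) with no covariate, with 4 residual and 4.19 prior degrees of freedom, and adjusted by Benjamini-Hochberg with a threshold of 0.05. A second fit covered all 45037 probe sets other than controls with no filter on dim values. The number of arrays limits the precision. The fit was tested on simulated data. Plots used matplotlib 3.10.9 (Python 3.11.15).

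The members and lists were chosen with earlier results of these data known. Named were the 8 genes, Errfi1, Gckr, Pkm, Txnip, the opposing pairs, from each list the genes that passed and the 4 of smallest p, and the nearest array patterns of the 3 genes with the largest difference. Ppargc1a and Fbp1, named by this rule, had -0.25 and -0.15 and did not pass. Some items named by the rule are not reported here. The labels do not say whether replicate numbers pair the arrays. Deviations from the group means correlated by -0.0033, -0.144 and -0.465 across genes between arrays of the same number. Between d/d and f/f arrays of different numbers the correlations ran from -0.466 to 0.43. With 3 arrays per group, and f/f replicate 3 unlike the others, these values cannot decide whether the arrays are paired.

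Alternatives were other scalings, pseudocounts of 1 and 64, other filters on dim probe sets, the mean of a gene's probe sets, a trend in the variance, weights per array, a replicate block, and each array left out. Marker lists of other cells had medians of -0.11 (stellate cells), 0.14 (bile duct cells), -0.15 (lymphocytes and neutrophils), -0.030 (erythroid cells), -0.26 (adipocytes, 1 gene), 0.085 (muscle) and -0.073 (pancreas), with 0 genes past the threshold and 1, a stellate cell marker, with an unadjusted p under 0.05 (limma).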

Additional observations from a re-analysis of the deposited data

How the results depend on the processing

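The count of members past the threshold stayed at 0 under every alternative run except array weights, where Mlxipl passed and the count was 1 of 7 genes and 1 of 16 probe sets, among 215 genes in all. Of the other ChREBP genes 2 passed, and 1 with the replicate number as a block (G6pc then had an adjusted p of 0.131 in limma) or with 1 array left out in 4 of 6 fits (range 1 to 2). The block changed no other call among members and the other glycolysis list, whose count stayed at 0, and the number passing over all genes was 6 with it, against 13 without. That number was 21 with a variance trend, and 4 to 88 with 1 array left out, the highest without f/f replicate 3. The paired differences between same-numbered arrays were 0.136 for Pfkl to Fbp1 and -0.337 for Pklr to Pck1 (two-sided exact sign-flip p = 0.5 each). With 3 arrays per group, this sign-flip test cannot give a small p. Averaging probe sets turned the pair of Pklr and Pck1 to 0.0447 and Pfkl to 0.0228. A common median turned Pfkl to 0.00342 and Mlxip to 0.00954. Array weights turned Pfkl to 0.142 (0.121 in the probe set fit), Thrsp to -0.115 (1424737_at -0.0304 and 1422973_a_at -0.132 in the probe set fit), Pkm to 0.0405, Mlxip to 0.0419, Tpi1 1435659_a_at to -0.0811 and Pfkl 1439148_a_at to -0.00283. With 1 array left out, signs also turned for Pfkl (-0.116 to 0.169), Thrsp (-0.0379 to 0.501, and -0.129 to 0.375 on 1422973_a_at), Pkm (-0.107 to 0.061), Mlx (-0.206 to 0.0697), Mlxip (-0.158 to 0.18), Pfkm (-0.0205 to 0.0745), Pklr 1421259_at (-0.0204 to 0.139), Tpi1 1435659_a_at (-0.118 to 0.139), and Pfkl 1439148_a_at (-0.0861 to 0.0986) and 1453541_at (-0.0153 to 0.113). The cause of these turns was not tested. Signs of Mlxipl, Slc2a2, Pfkfb3, Tpi1 and Pklr in the gene fit were the same in all 16 alternatives. All of these but the mean of a gene's probe sets rest on the same probe set per gene, and that mean left Pklr at -0.00844. Other probe sets had the opposite sign for Pklr (0.29 and 0.063), for Pfkfb3 (-0.10) and for Tpi1 on 1435659_a_at (0.050). The remaining Tpi1 probe set, 1415918_a_at, had the same sign (-0.057). Slc2a2 ran from 0.288 to 0.647 with 1 array left out and Pklr from -0.517 to -0.134.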

Other observations

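The paired E-box-like form printed in capitals in the Pklr window was matched in the promoter windows of 63 genes, and 33 of these were tested. Of the 33, 18 had a positive and 15 a negative difference, with a median of 0.024, and 4 had groups that did not overlap, where 14.7% of all genes did not. The 1 that passed in limma was Rgs16 (log2 difference 1.70, adjusted p = 0.00226), where 0.0948% of all genes passed. Rgs16 belongs to the ChREBP list, which was chosen with earlier results of these data known, so its pass does not test the element. An unadjusted p under 0.05 was found for 4, where 7.84% of all genes had one. Besides Rgs16 these were Fam124a, A430005L14Rik and Bmp4, all picked after their values were seen. In Rgs16 (chr1:153740103-153740402, plus strand) the match lies on the minus strand from 12 bases before to 5 bases after the gene start and reads CACCGGCCCGGCGCGTG on the plus strand. A match of letters is a description and not a binding site.

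Lipogenic genes of the ChREBP list lay on both sides of 0, and all of those named here were picked after their values were seen. Scd1, the desaturase that makes oleate, read 7544, 10702 and 8018 in d/d livers, against 4467, 8091 and 7447 in f/f livers, where d/d replicates 1 and 3 lay below f/f replicate 2 in deposited intensity. On the normalized scale all d/d arrays of Scd1 lay above all f/f arrays, by 0.45 ± 0.22 (limma adjusted p = 0.689), and the difference was 0.212 without f/f replicate 1. Me1, which makes NADPH for lipogenesis, had 481.9, 533.2 and 646.3 in d/d, against 969.7, 593.2 and 862.8 in f/f, with d/d replicate 3 above f/f replicate 2. Its other probe set, 1416632_at, differed by -0.47.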
